A study of Homo sapiens with 6 samples.

Results

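The laminin and nidogen genes described here were LAMA3, LAMA4, LAMA5, LAMB1, LAMB2, LAMB3, LAMC1, NID1 and NID2, taken by symbol from the deposited count table. They were 9 of its 28514 genes, and all 9 were among the 14548 that passed a filter on low counts and were tested. Messenger RNA had been sequenced from CI-huVEC, endothelial cells of the human umbilical vein that were made to grow indefinitely. The knockout clones K17, K18 and K19, each grown as a line of its own, had the genotype CCM3 -/- after CRISPR/Cas9 editing at exon 3 of CCM3. CCM3 is another name of PDCD10, a gene mutated in familial cerebral cavernous malformations. Against these 3 clones stood 3 wild-type lines, WT1, WT2 and WT4. All 6 were cultures at passage 31 and carry the same unexplained clone label, HKO. No label says whether the wild-type lines were separate clones, so the p-values below cover the spread of these cultures, which may be technical. Loss of CCM3 and other differences that distinguish edited clones from wild-type lines cannot be told apart.

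Laminins are secreted trimers of 1 alpha, 1 beta and 1 gamma chain that polymerise into the sheet on which a basement membrane is built. Nidogens are rod-shaped linkers that bind the laminin gamma 1 chain and type IV collagen. Endothelium is known to lay down trimers of LAMB1 and LAMC1 chains with the alpha chain of LAMA4 or LAMA5. The chains of LAMA3 and LAMB3 are known best from a laminin of the basement membrane of skin and other epithelia.

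In the knockout clones, 5 of the 9 genes were higher (LAMA3, LAMA5, LAMB2, LAMB3 and NID1), LAMA4 was lower, and LAMB1, LAMC1 and NID2 were not called. A gene was called where its adjusted p was below 0.05 in edgeR's quasi-likelihood test, with Benjamini-Hochberg adjustment over all tested genes. Of all tested genes 38.7% were called, 18% as higher and 20.8% as lower. Without WT1, WT2 or WT4, 2, 2 and 1 of the 9 genes were called higher, and without K17 6 were higher and 2 lower. Over all genes the same settings called 3081, 3360, 3020 and 9267, against 5637 with all libraries. The median log2 fold change, knockout over wild type, was 0.52 over the 9 genes and 0.002 over all tested genes. Levels are given as CPM, counts scaled to the library total with TMM factors. In 7 of the 9 genes the CPM of the knockout and wild-type libraries did not overlap, as in 55.5% of tested genes. In these bulk samples fewer cells of a type and less RNA per cell cannot be told apart.

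**Figure D1:**
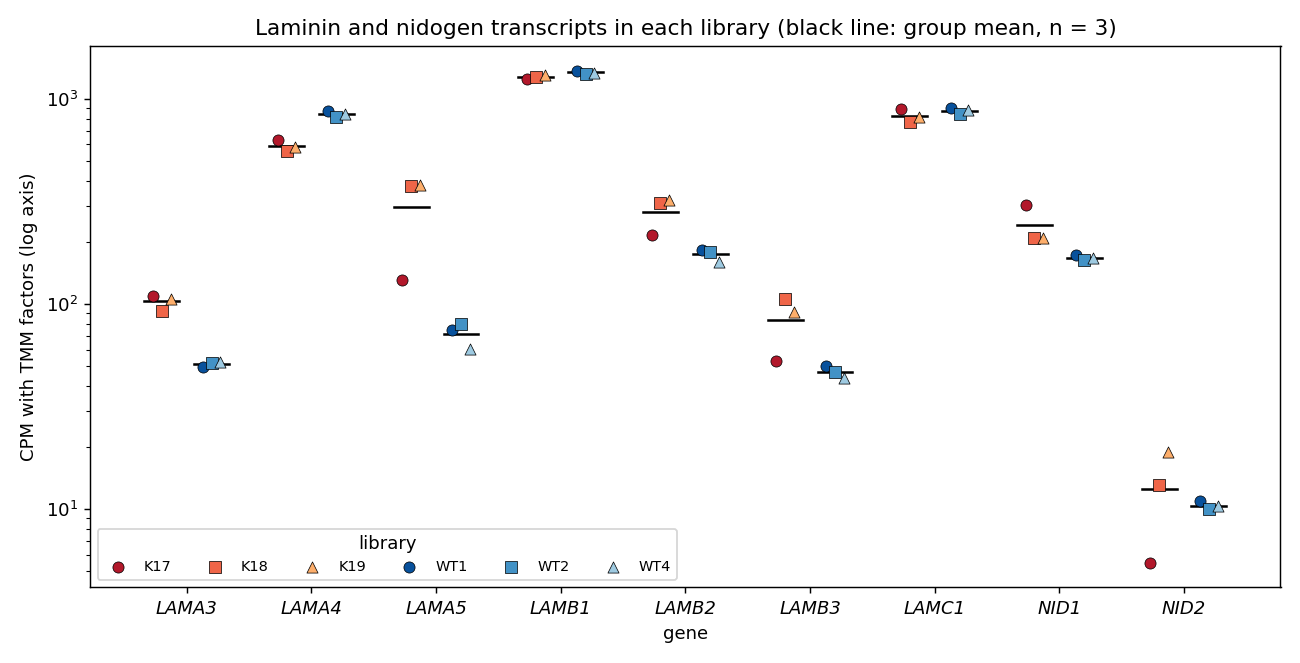
CPM with TMM factors (log axis) of the 9 laminin and nidogen genes, with the points of K17, K18 and K19 left of those of WT1, WT2 and WT4 for each gene and black lines at the group means (n = 3 each). For LAMA5, LAMB2 and LAMB3 the points of K18 and K19 lie above that of K17, and the wild-type points lie close together.

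Total counts were 28280417 to 29834621 in the knockout clones and 28392460 to 32919491 in the wild-type lines, and 3 counts came to 0.0911 to 0.106 CPM. The 9 genes took 0.36% to 0.371% of the counts. PDCD10 itself had 42.3, 31.6 and 37.6 CPM in K17, K18 and K19, against 60.5, 60.7 and 61.6 CPM in WT1, WT2 and WT4 (log2 fold change -0.71, edgeR adjusted p = 0.00374, and -0.50 with the GC trend removed). The knockout clones differed from each other more than the wild-type lines did. The median SD of log2 CPM over tested genes was 0.186 in the knockout clones and 0.07 in the wild-type lines. K18 and K19 also stood apart from K17 by base composition. Over 1899 tested genes with a GC content of at least 60%, the median log2 level relative to the wild-type mean was -0.06 in K17, 0.78 in K18 and 0.74 in K19, against -0.13 to 0.08 in the wild-type lines. Where removal of this trend moved a named gene's log2 fold change by over 1.5 times, the value after removal is given beside it.

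The promoters of LAMA3 and LAMB3, whose chains join in the epithelial laminin, are shown because each holds a match to the AP-1 motif TGANTCA, which FOS and JUN dimers bind. No window of the other 7 genes held one. The windows are RefSeq's for GRCh38.p14, each 300 bases long, and all 9 genes had at least 1. Capitals mark the AP-1 matches, searched on both strands. They began 125 and 69 bases upstream of the start in the LAMA3 window and 67 bases upstream of the start in the first LAMB3 window. Only 1 LAMA3 window was listed, while the LAMA3 count sums transcripts of all its promoters. The motif was present in 7.71% of the 35116 promoter windows of the table. LAMB3 has 3 windows in the table, of which the first holds the match and is shown, and the other 2 hold none. The LAMA3 window is chr18:23872770-23873069 on the + strand and the first LAMB3 window chr1:209651325-209651624 on the - strand.
LAMA3 promoter: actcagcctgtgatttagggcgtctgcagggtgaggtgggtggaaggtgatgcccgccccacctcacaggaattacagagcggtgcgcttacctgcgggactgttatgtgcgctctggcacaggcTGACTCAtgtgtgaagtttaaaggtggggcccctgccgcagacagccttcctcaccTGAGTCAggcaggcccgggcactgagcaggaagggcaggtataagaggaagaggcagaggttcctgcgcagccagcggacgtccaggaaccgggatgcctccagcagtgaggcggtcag
LAMB3 promoter: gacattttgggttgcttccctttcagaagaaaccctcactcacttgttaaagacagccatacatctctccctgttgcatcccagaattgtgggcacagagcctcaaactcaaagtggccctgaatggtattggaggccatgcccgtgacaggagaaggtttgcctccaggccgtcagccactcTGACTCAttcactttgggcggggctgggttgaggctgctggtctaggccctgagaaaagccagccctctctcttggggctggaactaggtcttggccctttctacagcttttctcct

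The promoters of LAMA4 and LAMA5 are shown as those of the alpha chain genes that moved in opposite directions, and they differ in base composition. Capitals mark the GC box GGGCGG on either strand, bound by SP1 and related zinc finger factors. LAMA5 held 5 GC boxes and LAMA4 held none, while 45.0% of all windows held at least 1. The windows had a GC content of 82.7% for LAMA5 and 51.3% for LAMA4. They are chr6:112254518-112254817 for LAMA4 and chr20:62367263-62367562 for LAMA5, both on the - strand. Among the other members the first windows of LAMB1 and NID2 held 4 GC boxes each and that of LAMC1 held 3. Each window of LAMA3, LAMB2, LAMB3 and NID1, which were called higher, held 1. None of the members' windows held the CACCC box CCACACCC (3.28% of all windows) or the TATA box TATAAA (11.5% of all windows). These matches are letters in a window, and no binding was measured.
LAMA4 promoter: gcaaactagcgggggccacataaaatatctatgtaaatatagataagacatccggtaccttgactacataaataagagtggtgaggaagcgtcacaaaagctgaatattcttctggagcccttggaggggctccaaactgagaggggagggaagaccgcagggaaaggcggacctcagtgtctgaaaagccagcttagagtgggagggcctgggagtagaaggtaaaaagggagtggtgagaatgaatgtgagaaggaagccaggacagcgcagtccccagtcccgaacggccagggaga
LAMA5 promoter: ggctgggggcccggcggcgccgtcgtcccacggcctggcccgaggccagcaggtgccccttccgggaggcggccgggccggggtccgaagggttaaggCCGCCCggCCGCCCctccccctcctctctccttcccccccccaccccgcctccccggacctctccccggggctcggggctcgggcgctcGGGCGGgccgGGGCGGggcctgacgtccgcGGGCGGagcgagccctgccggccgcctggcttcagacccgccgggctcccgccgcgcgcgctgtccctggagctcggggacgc

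Among the alpha chains, which carry the globular domains bound by cell receptors, LAMA4 was the most abundant per length and was lower in the knockout clones. LAMA4, on chromosome 6, had 628, 558 and 582 CPM in K17, K18 and K19, against 870, 819 and 847 CPM in WT1, WT2 and WT4. Every knockout clone lay below every wild-type line. The means were 589 ± 36.0 CPM in knockout clones and 845 ± 25.7 CPM in wild-type lines (SD, n = 3 each), a log2 fold change of -0.52 with SE 0.06 (95% interval -0.66 to -0.38, edgeR adjusted p = 0.00126). The call was made under all 19 alternative settings, at log2 fold changes of -0.57 to -0.46.

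LAMA5, on chromosome 20, which encodes an alpha chain of endothelial laminins, had the largest increase of the 9 genes. Its CPM was 131, 377 and 382 in K17, K18 and K19, against 74.3, 79.6 and 60.4 in WT1, WT2 and WT4. K18 and K19 were close to each other and far above K17, which was itself above all wild-type lines. The means were 297 ± 144 CPM in knockout clones and 71.4 ± 9.91 CPM in wild-type lines (SD, n = 3 each). The log2 fold change was 2.05 with SE 0.41 (95% interval 1.07 to 3.04, edgeR adjusted p = 0.0103), and without WT4 it was 1.94 and not called (adjusted p = 0.0515). LAMA5 has a GC content of 65.3%, the highest of the 9. With the GC trend removed its log2 fold change was 1.29 (edgeR adjusted p = 0.000538), from 169, 237 and 240 CPM in K17, K18 and K19, against 88.9, 91.3 and 85.0 CPM in WT1, WT2 and WT4. The spread among the clones was then smaller, and the groups still did not overlap. ADRM1, a proteasome subunit gene that overlaps LAMA5 on the opposite strand, had a log2 fold change of 0.52 (adjusted p = 0.157). The strand setting of the counting is not given, and the share of reads from ADRM1 in the LAMA5 count was not tested.

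LAMA3, on chromosome 18, which encodes the alpha chain of the epithelial laminin, rose by a similar amount in every clone. It had 110, 92.9 and 106 CPM in K17, K18 and K19, against 49.0, 51.5 and 52.1 CPM in WT1, WT2 and WT4. Neither group's libraries came near the other's. The means were 103 ± 8.94 CPM in knockout clones and 50.9 ± 1.61 CPM in wild-type lines (SD, n = 3 each), a log2 fold change of 1.02 with SE 0.08 (95% interval 0.83 to 1.21, edgeR adjusted p = 0.000297). Its GC content is 46.5%, and it was called under all 19 alternatives, at 0.82 to 1.11. The row sums transcripts of all LAMA3 promoters, so its short and long forms are not separated.

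The genes whose log2 CPM profile over the 6 libraries lay nearest to that of LAMA5, after each gene's mean was subtracted, were PARP10 and RIN1, each with a root-mean-square difference of 0.087, and PLEC with 0.109, among 10755 genes searched. PLEC encodes plectin, a linker of intermediate filaments to hemidesmosomes. Its CPM was 162, 458 and 561 in K17, K18 and K19, against 109, 112 and 83.2 in WT1, WT2 and WT4. RIN1 had 15.6, 42.2 and 41.4 CPM in the clones, against 8.34, 8.04 and 7.30 in the wild-type lines. PARP10 had 5.38, 15.1 and 14.6 CPM, against 2.87, 3.52 and 2.22. The profiles were compared with the GC trend left in. Tested genes of at least 60% GC were also lowest of the clones in K17 (median log2 level -0.06, against 0.78 and 0.74 in K18 and K19). The part of the trend in these matches was not tested. Nearest to LAMA4 were ARSJ (0.019), ELOVL5 (0.022) and PIGA (0.023).

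Of the beta chains, which with the alpha and gamma chains form the coiled stem of the trimer, LAMB2 and LAMB3 were higher in the knockout clones. LAMB1 was not called. LAMB1, on chromosome 7, was the most abundant of the 9 genes per length, at 171.3 ± 0.284 FPKM in knockout clones and 186.2 ± 1.95 FPKM in wild-type lines (FPKM, the deposited value scaled by gene model length and library size; SD, n = 3 each). Its CPM was 1249, 1283 and 1301 in K17, K18 and K19, against 1375, 1321 and 1339 in WT1, WT2 and WT4. The groups did not overlap, but they lay close together. The log2 fold change was -0.07 with SE 0.04 (95% interval -0.17 to 0.03, edgeR adjusted p = 0.201), or -0.05 with the GC trend removed. DLD, a dehydrogenase subunit gene that overlaps LAMB1 on the opposite strand, had a log2 fold change of -0.06.

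LAMB2, on chromosome 3, encodes a beta chain known from laminins of vessel walls, kidney glomeruli and the neuromuscular junction. It had 216, 309 and 321 CPM in K17, K18 and K19, against 184, 180 and 159 CPM in WT1, WT2 and WT4. K17 was the lowest clone and lay just above the wild-type lines. The log2 fold change was 0.69 with SE 0.16 (edgeR adjusted p = 0.0159), from means of 282 ± 57.4 CPM in knockout clones and 174 ± 13.1 CPM in wild-type lines (SD, n = 3 each). Leaving out any 1 wild-type line ended the call, at adjusted p of 0.0524 to 0.0691. LAMB2 has a GC content of 60.3%, and with the GC trend removed its log2 fold change was 0.30 (edgeR adjusted p = 0.00201), from 247, 234 and 250 CPM in K17, K18 and K19, against 203, 195 and 194 CPM in WT1, WT2 and WT4. The groups still did not overlap. The pseudogene LAMB2P1 had at most 8 counts in a library.

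LAMB3, on chromosome 1, the beta chain of the epithelial laminin, had 52.7, 105 and 91.6 CPM in K17, K18 and K19, against 50.0, 46.3 and 43.4 CPM in WT1, WT2 and WT4. The values of K18 and K19 were well above the wild-type lines, and K17 was just above the highest of them. The log2 fold change was 0.84 with SE 0.25 (95% interval 0.24 to 1.43, edgeR adjusted p = 0.0386). This call was made under 11 of 19 alternatives: it was lost without WT1, WT2, WT4, K18 or K19 (adjusted p of 0.0888 to 0.128), with limma-voom and with limma on FPKM. At a GC content of 59.5%, removal of the GC trend gave 0.46 (edgeR adjusted p = 0.0202), from 58.9, 82.0 and 73.9 CPM in K17, K18 and K19, against 54.6, 49.7 and 51.8 CPM in WT1, WT2 and WT4.

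**Figure D2:**
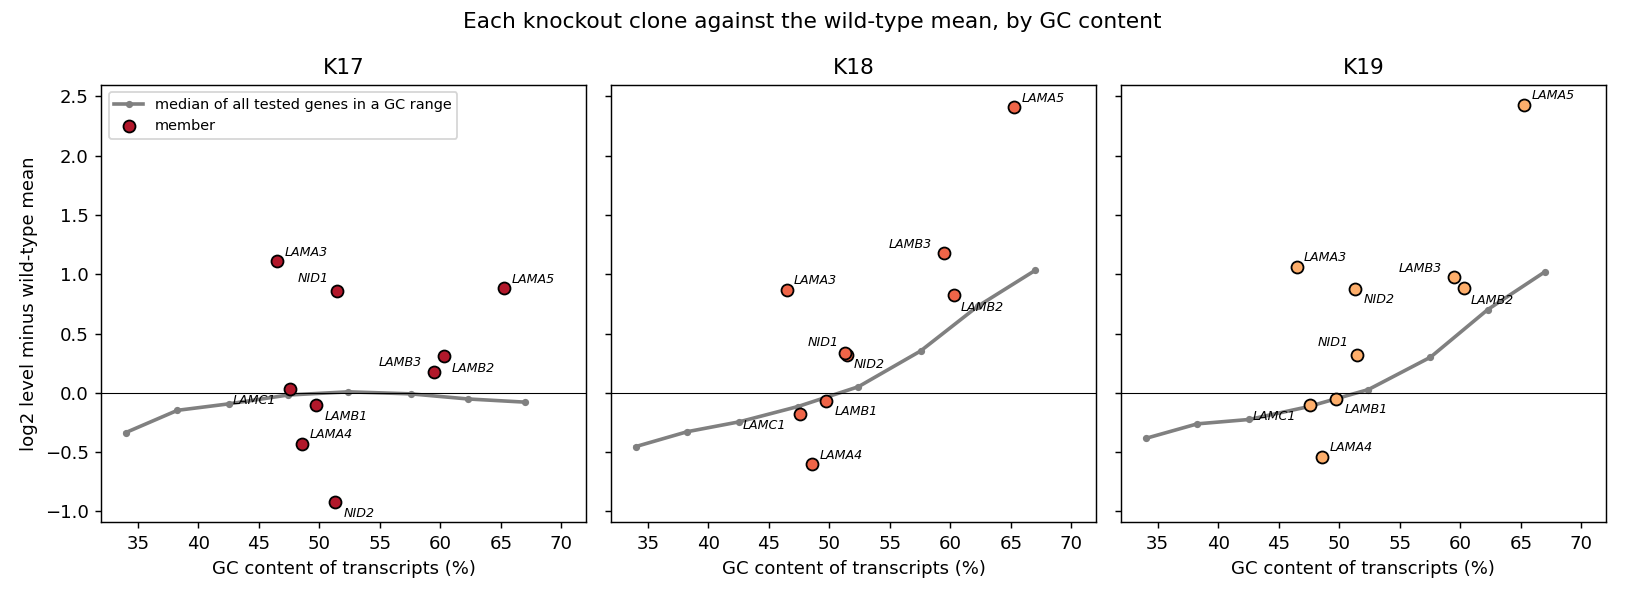
Log2 level of each of the 9 genes relative to the wild-type mean against its GC content (%), 1 panel for each knockout clone, with a line through the medians of all tested genes in GC ranges. In K18 and K19 the line climbs over the whole GC range, while in K17 it lies below 0 at the low-GC end and near 0 above it, and LAMA5 lies above the line in all 3 clones.

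The gamma 1 chain gene LAMC1, on chromosome 1, whose product joins the alpha chains of LAMA4 and LAMA5 in endothelial laminins, was not called. It had 894, 774 and 815 CPM in K17, K18 and K19, against 901, 848 and 881 CPM in WT1, WT2 and WT4. K17 lay within the wild-type range and K18 and K19 below it. The log2 fold change was -0.08 with SE 0.06 (95% interval -0.24 to 0.07, edgeR adjusted p = 0.334). Without K17 it was -0.14 and called (edgeR adjusted p = 0.0303), and with the GC trend removed it was -0.02.

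Among laminin chain genes outside the 9, LAMA2 averaged 1.66 ± 0.237 CPM in knockout clones and 2.70 ± 0.233 CPM in wild-type lines (SD, n = 3 each; log2 fold change -0.70, adjusted p = 0.0212), a call lost without WT1, WT2, WT4 or K18 (adjusted p of 0.0521 to 0.0905). With all libraries it was also lost in limma-voom with quality weights per group (adjusted p = 0.0575). LAMB4, at 0.89 ± 0.345 CPM in knockout clones and 0.988 ± 0.211 CPM in wild-type lines, was not called. LAMA1 and LAMC3 had at most 2 and 9 counts in a library and were not tested.

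**Figure D3:**
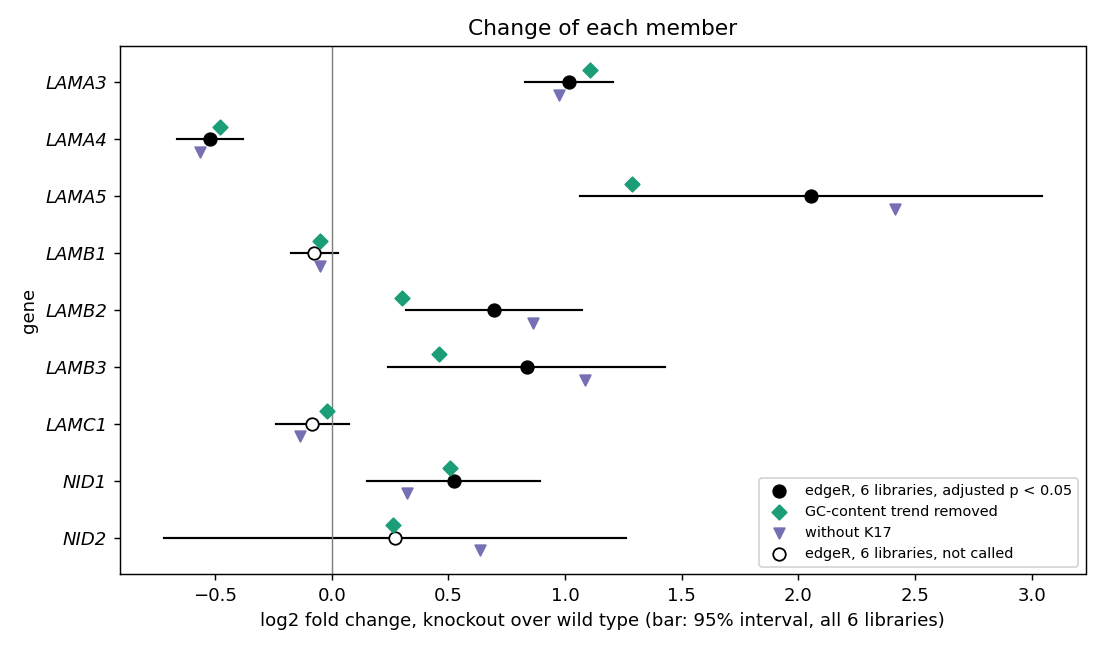
Log2 fold change, knockout over wild type, of the 9 genes (circles, filled where called at an adjusted p below 0.05, with bars for 95% intervals), with the value after removal of the GC trend (diamonds) and without K17 (triangles). LAMA5 moves furthest on removal of the trend, to 1.29, while LAMA3 and LAMA4 move little.

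Levels of different genes can be compared per length, in the deposited FPKM. Within the alpha chains, LAMA4 took 79.4%, 64.3% and 64.3% of the summed FPKM in K17, K18 and K19, against 91.1%, 90.2% and 91.6% in WT1, WT2 and WT4. LAMA5 took 10.7%, 28.1% and 27.3% in the same clones, against 5.02%, 5.65% and 4.22% in the wild-type lines. The share of LAMA3 was 9.76%, 7.52% and 8.25% in the clones, against 3.60%, 3.98% and 3.95% in the wild-type lines. The alpha chain mix thus held less LAMA4 in every clone. Within the beta chains, LAMB1 took 76.4 ± 4.08% in knockout clones and 84.9 ± 0.867% in wild-type lines (SD, n = 3 each). LAMB2 took 16.8 ± 2.35% in knockout clones and 11.1 ± 0.686% in wild-type lines.

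The sums of the alpha chains were 90.7 ± 4.35 FPKM in knockout clones and 102.0 ± 1.60 FPKM in wild-type lines (SD, n = 3 each), and those of the beta chains 224.4 ± 11.8 FPKM in knockout clones and 219.3 ± 3.15 FPKM in wild-type lines.

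**Figure D4:**
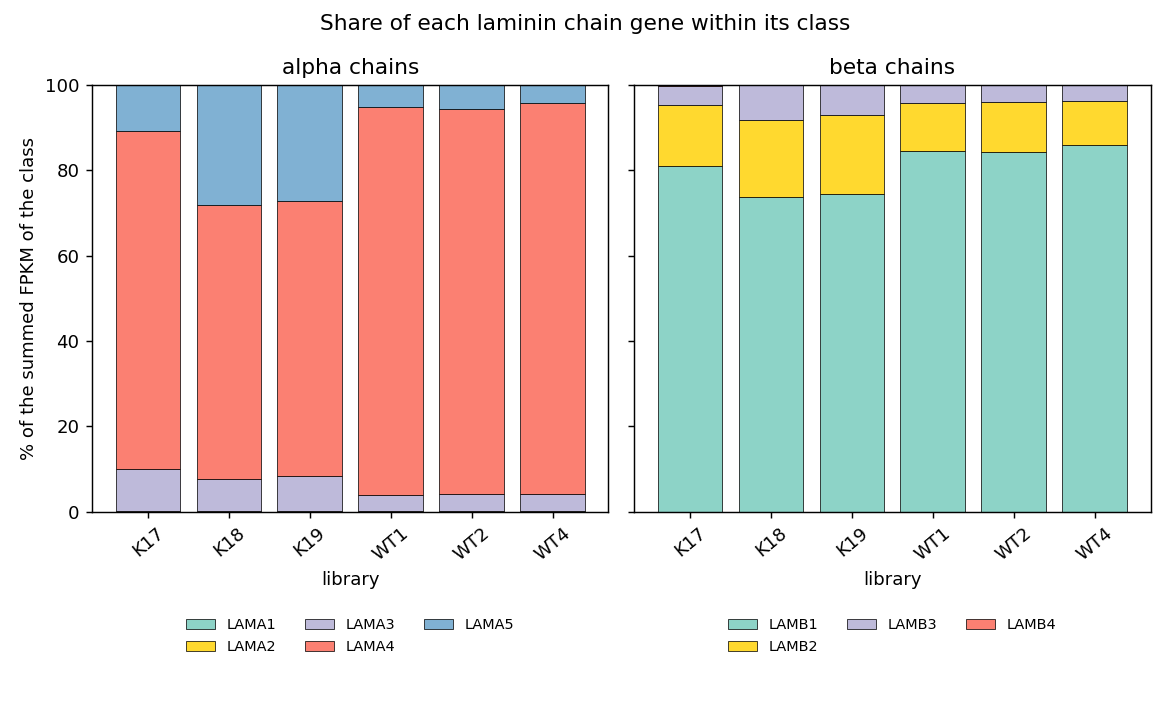
Share (%) of each alpha and beta chain gene in the summed FPKM of its class, with knockout clones K17, K18 and K19 left of wild-type lines WT1, WT2 and WT4. LAMA4 takes 64.3% to 79.4% of the alpha chain FPKM in the knockout clones and 90.2% to 91.6% in the wild-type lines.

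For the endothelial trimers the chain gene with the lowest FPKM was taken as the scarcest. For trimers of LAMA5 with LAMC1 and either LAMB1 or LAMB2 it was LAMA5, at 9.15, 25.8 and 25.7 FPKM in K17, K18 and K19, against 5.2, 5.68 and 4.30 FPKM in WT1, WT2 and WT4. For the trimer of LAMA4, LAMB2 and LAMC1 it was LAMB2 in every library, at 29.8, 41.6 and 42.5 FPKM in K17, K18 and K19, against 25.3, 25.3 and 22.3 FPKM in WT1, WT2 and WT4. For the trimer of LAMA4, LAMB1 and LAMC1 it was LAMA4 in the clones, at 68.2, 59.1 and 60.7 FPKM. In WT1, WT2 and WT4 it was LAMC1, at 91.4, 87.6 and 90.7 FPKM. LAMA4 lay close above it there, at 94.4, 90.5 and 93.3 FPKM, so the wild-type order of these genes is uncertain. These are transcript levels, and no assembled trimer was measured.

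Ratios within a library do not depend on its scaling, but they carry the GC trend, as the shares do. The FPKM ratio of LAMA4 to LAMA5 was 7.45, 2.29 and 2.36 in K17, K18 and K19, against 18.1, 15.9 and 21.7 in WT1, WT2 and WT4. That of LAMB1 to LAMB2 was 5.74, 4.12 and 4.02 in the clones, against 7.44, 7.28 and 8.35 in the wild-type lines. Both ratios were lower in every clone than in any wild-type line. The differences in mean log2 ratio were -2.43 for LAMA4 to LAMA5 and -0.75 for LAMB1 to LAMB2, each with p = 0.1 in a two-sided exact permutation test. That p is the smallest that 3 libraries against 3 allow, and it was 0.15 after adjustment over the 3 ratios computed. On CPM with the GC trend removed, which was tried after seeing the data, the differences were -1.75 for LAMA4 to LAMA5 and -0.35 for LAMB1 to LAMB2 (exact permutation p = 0.1 each). The LAMB1 to LAMB2 ratio on that scale was 4.98, 5.56 and 5.31 in K17, K18 and K19, against 6.66, 6.72 and 6.82 in WT1, WT2 and WT4, so the groups still did not overlap.

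Of the nidogens, NID1 was higher in the knockout clones and NID2 was not called. NID1, on chromosome 1, had 305, 210 and 209 CPM in K17, K18 and K19, against 173, 164 and 167 CPM in WT1, WT2 and WT4. K17 was the highest clone here, and all clones lay above the wild-type lines. The means were 241 ± 55.2 CPM in knockout clones and 168 ± 4.78 CPM in wild-type lines (SD, n = 3 each), a log2 fold change of 0.52 with SE 0.15 (95% interval 0.15 to 0.89, edgeR adjusted p = 0.0388). The call was lost without WT1, WT2 or WT4 (adjusted p of 0.104 to 0.121), and without K17 the log2 fold change was 0.33 (adjusted p = 0.000341).

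NID2, on chromosome 14, had 5.48, 13.1 and 19.1 CPM in K17, K18 and K19, against 10.9, 9.99 and 10.3 CPM in WT1, WT2 and WT4. K17 was below the wild-type lines and K18 and K19 above them, so the groups overlapped. The log2 fold change was 0.27 with SE 0.41 (95% interval -0.72 to 1.26, edgeR adjusted p = 0.617). It was 0.64 and called without K17 (adjusted p = 0.00727), and -0.15 without K19. C14orf166, which overlaps NID2 on the opposite strand, had a log2 fold change of -0.07 at a far higher level (138 FPKM in knockout clones and 149 FPKM in wild-type lines on average), and its share of the NID2 count was not tested. Per length, NID1 exceeded NID2 in every library. The FPKM ratio of NID1 to NID2 was 49.5, 14.2 and 9.76 in K17, K18 and K19, against 14.1, 14.6 and 14.4 in WT1, WT2 and WT4 (exact permutation p = 0.9). The wild-type lines were nearly equal in this ratio and the clones spread to both sides of them.

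Variation among clones differed between the genes. The highest clone exceeded the lowest by a factor of 3.48 for NID2, 2.93 for LAMA5 and 2.00 for LAMB3, with a median of 1.28 over all tested genes. The SD of log2 CPM among clones was 0.91 for NID2, 0.89 for LAMA5, 0.53 for LAMB3 and 0.31 for both LAMB2 and NID1. These factors and SDs carry the GC trend. With the trend removed, K17, K18 and K19 had 169, 237 and 240 CPM of LAMA5 and 58.9, 82.0 and 73.9 of LAMB3. LAMB2 then had 247, 234 and 250 CPM in these clones, a smaller spread, while NID2 had 5.44, 12.9 and 19.2. With the trend left in, the SD of log2 CPM for LAMB1 was 0.03 among clones, close to its SD of 0.03 among the wild-type lines. LAMA4, LAMC1 and LAMA3 had 0.09, 0.11 and 0.13 among clones, all below the median of 0.186 over tested genes.

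In the authors' deposited table, LAMA3 (log2 fold change 1.02), LAMA5 (1.84), LAMB2 (0.68), LAMB3 (0.80) and NID1 (0.52) were higher and LAMA4 (-0.51) lower at an adjusted p below 0.05. The authors' deposited table gave adjusted p of 0.422 for LAMB1, 0.695 for LAMC1 and 0.729 for NID2.

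The other basement membrane proteins included the type IV collagens, whose network the nidogens join to laminin. COL4A1 and COL4A2 were lower in the knockout clones. COL4A1 averaged 413 ± 86.7 CPM in knockout clones and 1362 ± 83.9 CPM in wild-type lines (SD, n = 3 each; log2 fold change -1.72, edgeR adjusted p = 0.000526). COL4A2, its partner in the collagen trimer, averaged 376 ± 112 CPM in knockout clones and 799.9 ± 64.9 CPM in wild-type lines (log2 fold change -1.09, edgeR adjusted p = 0.00937). The direction of both was opposite to that of NID1. COL4A5, another type IV collagen chain, was not called (log2 fold change 0.06, adjusted p = 0.706). COL4A6 had 22.8, 73.8 and 165.8 CPM in K17, K18 and K19, against 35.1, 36.7 and 34.1 CPM in WT1, WT2 and WT4, and was not called either (adjusted p = 0.144). SPARC, a collagen-binding protein, was also lower (-0.46, and -0.65 with the GC trend removed). NTN4, a netrin that binds laminin, was higher, with 474 ± 72.1 CPM in knockout clones and 200.2 ± 10.1 CPM in wild-type lines (SD, n = 3 each; log2 fold change 1.24, edgeR adjusted p = 0.00069), as was TINAGL1 (0.74, and 0.39 with the GC trend removed). HSPG2, which encodes the heparan sulfate proteoglycan perlecan, had 462, 1103 and 1683 CPM in K17, K18 and K19, against 662, 615 and 526 CPM in WT1, WT2 and WT4. K17 lay below the wild-type lines and the other clones above them, and the gene was not called (edgeR adjusted p = 0.156), though it was without K17 (log2 fold change 1.22, adjusted p = 0.0102). Its GC content is 63.0%, and its log2 fold change was 0.85 with all libraries and 0.21 with the GC trend removed (adjusted p = 0.512). Of the 12 tested genes of this list 2 were called higher, or 7 without K17, and 3 lower (median log2 fold change 0.20). Without K17, 4776 of 14814 tested genes were called higher in all, against 2612 of 14548 with all libraries. That setting leaves K18 and K19, where tested genes of at least 60% GC had median log2 levels of 0.78 and 0.74. The part of the GC trend in this count was not tested.

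Among genes of laminin receptors, 6 of 12 tested were higher and 3 lower (median log2 fold change 0.20). ITGA6 and ITGB4 encode integrin alpha 6 beta 4, a laminin receptor of hemidesmosomes, and both were higher. ITGB4 had 164, 447 and 457 CPM in K17, K18 and K19, against 13.0, 14.7 and 11.9 CPM in WT1, WT2 and WT4 (log2 fold change 4.75, SE 0.44, edgeR adjusted p = 0.00062). K17 was the lowest clone for ITGB4, as for LAMA5 and in the median of tested genes with a GC content of at least 60%. ITGB4 has a GC content of 62.9%, and with the GC trend removed its log2 fold change was 4.13. ITGA6 averaged 608 ± 96.8 CPM in knockout clones and 195.6 ± 7.20 CPM in wild-type lines (SD, n = 3 each; log2 fold change 1.64). ITGB1, the beta chain of most laminin-binding integrins, was not called (log2 fold change -0.25, adjusted p = 0.126), and without K17 it was called at -0.37 (adjusted p = 0.00355). With the GC trend removed it was -0.07 (adjusted p = 0.491). DAG1, which encodes dystroglycan, was higher (0.55, and 0.32 with the GC trend removed). Of the syndecans, SDC4 was lower (-0.70), and SDC2 was lower at 0.23 ± 0.137 CPM in knockout clones and 10.2 ± 0.416 CPM in wild-type lines.

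**Figure D5:**
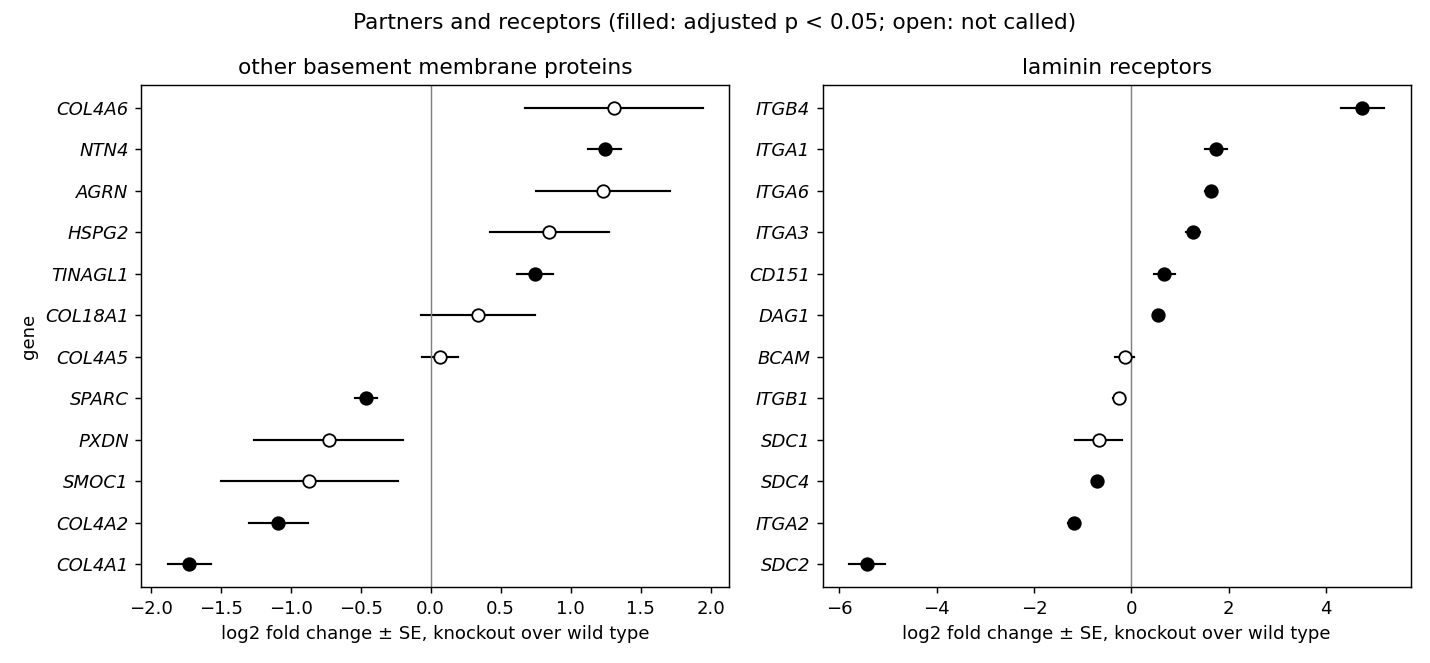
Log2 fold change, knockout over wild type, with SE bars for the tested genes of other basement membrane proteins and of laminin receptors, filled where called at an adjusted p below 0.05 and open where not. COL4A1 (-1.72) and COL4A2 (-1.09) lie at the low end among the basement membrane genes, and ITGB4 (4.75) lies at the high end among the receptors.

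Dystroglycan binds the laminin alpha chains through a sugar chain built by a series of enzymes. Of the 10 tested genes for these enzymes 2 were higher, B3GNT1 (log2 fold change 0.46, edgeR adjusted p = 0.00514) and POMGNT1 (0.36, adjusted p = 0.0089, and 0.21 with the GC trend removed), the second not called without WT4 (adjusted p = 0.0518). No GC content was matched to B3GNT1 by symbol, so it has no value with the GC trend removed. The number higher was 4 without K17, where 4776 genes were called higher in all, against 2612 with all libraries. The median log2 fold change of the list was 0.035. Of 6 tested genes for proteases that can cut laminins or nidogens, CTSS, the cathepsin S gene, was higher (4.63 ± 0.539 CPM in knockout clones and 1.90 ± 0.315 CPM in wild-type lines, SD, n = 3 each). BMP1, whose product trims laminin chains, was higher as well (log2 fold change 0.96, edgeR adjusted p = 0.0176). It was 0.51 with the GC trend removed, and it was not called without WT1, WT2 or WT4 (adjusted p of 0.0562 to 0.0752). TLL1, a relative of BMP1, was lower at 0.0938 ± 0.0555 CPM in knockout clones and 14.2 ± 0.832 CPM in wild-type lines.

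Markers of endothelium were abundant in all libraries. Their summed CPM over 10 genes was 4712 to 5354 in knockout clones and 2861 to 3014 in wild-type lines, and 8 were called higher and none lower, or 5 higher without WT1, WT2, WT4 or K19. The receptor genes KDR (log2 fold change 1.28) and TEK (1.77) had the smallest adjusted p, and CDH5 and ERG were not called. Since the laminin of LAMA3 and LAMB3 chains is known from epithelia, the 8 epithelial markers were set beside these genes. Their sum was 352 to 629 CPM in knockout clones and 243 to 262 CPM in wild-type lines, with 3 of 4 tested genes higher, most of it from KRT18. Among these KRT8 (log2 fold change 1.28) and MUC1 (1.49) were higher. The defining epithelial genes CDH1 and KRT5 had 0 counts in all 6 libraries, which allows up to 0.106 CPM in a library, and KRT14 had at most 2 counts. KRT19 had 89, 9 and 0 counts in K17, K18 and K19, against 10, 7 and 11 counts in WT1, WT2 and WT4. EPCAM had 26, 8 and 40 counts in K17, K18 and K19, against 20, 13 and 14 counts in WT1, WT2 and WT4. Smooth muscle and pericyte markers summed to 46.8 to 78.5 CPM in knockout clones and 382 to 399 CPM in wild-type lines over 9 genes, 1 higher and 3 lower of 5 tested. Most of the wild-type sum was RGS5, at 10.4 ± 4.98 CPM in knockout clones and 300.4 ± 7.82 CPM in wild-type lines (SD, n = 3 each). NOTCH3 was also lower, with 0 counts in every knockout clone, and ACTA2 was higher (log2 fold change 1.80), while PDGFRB had at most 6 counts and DES at most 2. Fibroblast markers summed to 58.8 to 313 CPM in knockout clones and 15.4 to 16.7 CPM in wild-type lines over 8 genes, 1 of 4 tested being higher, which was PI16, with LUM at most at 2 counts and DCN at 4. FAP had 4.29, 28.98 and 38.1 CPM in K17, K18 and K19, against 11.2, 10.2 and 10.7 CPM in WT1, WT2 and WT4, and was not called. The collagen genes of this list were higher in K19 than in the other clones. COL1A1 had 1, 7 and 101 counts in K17, K18 and K19, against 5 to 10 in the wild-type lines. COL1A2 had 7, 5 and 91 counts in the same clones, against 75 to 85 in the wild-type lines. COL3A1 had 2, 0 and 57 counts in these clones, against 29 to 41 in the wild-type lines. For COL1A2 and COL3A1, K17 and K18 thus lay below the wild-type lines. Leukocyte markers summed to 37.6 to 42.5 CPM in knockout clones and 20.2 to 24.3 CPM in wild-type lines over 6 genes, both tested genes (CD68 and ITGAM) higher. Most of each sum was CD68, at a mean of 37.8 CPM in knockout clones and 22.1 CPM in wild-type lines. ITGAM had 20, 19 and 19 counts in K17, K18 and K19, against 1, 7 and 1 in WT1, WT2 and WT4. It passed the filter on low counts only through the knockout clones. PTPRC had 5, 4 and 2 counts in the clones, against 4, 23 and 3 in the wild-type lines, and was not tested. The part of these marker shifts in the laminin and nidogen values was not tested.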

How the data were processed

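Libraries were strand-specific and made from mRNA, per the labels' protocols. Per the submitters' processing notes, STAR and HTSeq were used with hg19 (GRCh37). The sources used here give no versions, annotation or strand setting of the counting, so overlapping genes are uncertain. The authors deposited whole-number counts per gene symbol and, beside them, FPKM. Per the file headers, another deposited table compared the groups and gave a mean signal, a log2 fold change with a standard error (treated here as a score) and raw and adjusted p-values, by a tool that the sources do not name.

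Counts were fitted over the whole table with edgeR 4.0.16 in R 4.3.3 (TMM, default filterByExpr, robust quasi-likelihood F test, two-sided), with Benjamini-Hochberg adjustment over 14548 genes. The 19 alternatives included DESeq2 1.42.0, limma 3.58.1 and each library left out. GC content was the median over a gene's transcripts in GENCODE 29, matched by symbol for 12617 tested genes (86.7%), and its trend was removed per library by lowess (span 0.3). Chi-square per degree of freedom was 21 to 74.4 between knockout clones and 2.16 to 4.47 between wild-type lines, so no file was a copy of another. Whether libraries came from 1 culture was not tested. Depth was 28280417 to 32919491 counts, and floors of 3 counts cover counting error only.

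The members, lists and tests were chosen with earlier results of these data known. Named genes were the 9 members, other laminin chain genes, up to 4 called genes of each other list (2 in each direction, smallest adjusted p), 7 basement membrane and receptor genes by name, PDCD10, and the 3 nearest profiles to the members with the largest increase and decrease. KRT18, CDH1, KRT5, KRT14, PDGFRB, DES, LUM, DCN, FAP, COL1A1, COL1A2, COL3A1, COL4A5, COL4A6, KRT19, EPCAM, PTPRC, CDH5, ERG, ADRM1, DLD, C14orf166, LAMB2P1 and the comparison of trimers were added after their values were seen. Some genes that this rule or these lists take are not reported here.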

Additional observations from a re-analysis of the deposited data

How the results depend on the processing

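Of 171 values for the 9 genes under 19 alternatives, 148 kept their direction and their side of the threshold. LAMA3 and LAMA4 were called under all 19 and LAMB1 under none. The call of LAMB3 was lost with limma-voom (log2 fold change 0.77) and with limma on log2 of FPKM plus 1 (0.68) or plus 0.1 (0.73). That of NID1 was lost with upper-quartile factors (0.51), library totals (0.48), no filter on low counts (0.54) and FPKM plus 1 (0.44) or plus 0.1 (0.45). Both FPKM settings called 3 members higher, against 5. The cause was not tested. With 1 library left out, log2 fold changes ranged from 1.84 to 2.42 for LAMA5, 0.61 to 0.86 for LAMB2, 0.65 to 1.08 for LAMB3, -0.14 to -0.016 for LAMC1, 0.33 to 0.64 for NID1 and -0.15 to 0.64 for NID2. LAMB4 ranged from -0.38 to 0.14, its sign turning without K18. The members called ranged from 1 (without WT4) to 6 (without K17) higher and from 1 to 2 lower, and the genes called in all from 3020 (without WT4) to 9267 (without K17), against 5637. Leaving a library out also leaves fewer samples. With the GC trend removed, which was tried after seeing the data, the difference in the log2 ratio of LAMB1 to LAMB2 was -0.35, against -0.75. Without K17, 7 other basement membrane genes were called higher, against 2, and 4776 genes were called higher in all, against 2612. Of the dystroglycan enzymes, 1 to 4 were higher and 0 to 2 lower across settings, and of the proteases 1 to 3 higher and 1 to 2 lower. Without WT1, WT2, WT4 or K19, 5 endothelial markers were called higher, against 8. No paired analysis was possible because the replicate numbers were given in listing order and the labels tie no knockout clone to a wild-type line. Depth limits LAMA1, LAMC3 and the low side of SDC2 and TLL1.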
